A study of Mus musculus with 13 samples.

Results

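Sm, LSM and spliceosomal snRNP proteins were followed by ribosome footprint profiling in fibroblasts under ER stress. The members were all symbols that begin with Lsm and a digit, with Snrp, with Sf3a or Sf3b and a digit, or with Prpf and a digit, pseudogenes left out. This gave 47 genes of the 22406 symbols in the tables, and all 47 had a mean of at least 2 TPM, the length-scaled share of footprints described further on, in the MEF and in the NIH3T3 libraries, as did 10432 and 10117 genes in all. They fall into 21 Sm and LSM proteins and 26 other members, named larger snRNP proteins here by their symbols, although Sf3b5 and Sf3b6 are themselves small.

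The libraries came from 13 cultures. PERK WT MEFs (mouse embryonic fibroblasts) and MEFs knocked out for PERK (PERK −/−) were each left untreated or given 1 μM thapsigargin (Tg) for 1, 2, 5 or 8 h, and NIH3T3 cells, an established line of mouse embryonic fibroblasts, were left untreated or given 200 nM Tg for 2 or 7 h. Tg empties the calcium store of the ER and so brings on ER stress, and PERK, encoded by Eif2ak3, is the ER kinase that then phosphorylates eIF2α and lowers translation initiation. The design asks which changes in protein synthesis follow ER stress early and late, and which of them differ without PERK. Cells were frozen and lysed without cycloheximide, and whether the PERK −/− MEFs are 1 clone or several was not given in the sources used here.

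Sm proteins form a ring of paralogous subunits around the uridine-rich site of the U1, U2, U4 and U5 snRNAs, and the SMN complex loads them there in the cytoplasm. LSM proteins form kindred rings: LSM2 to LSM8 binds the 3′ end of U6 snRNA in the nucleus, while in the LSM1 to LSM7 ring of the cytoplasm, which acts in decapping and decay of mRNA, Lsm1 takes the place of Lsm8. Larger proteins specific to U1, U2 or the U4/U6.U5 tri-snRNP are then added to these cores, and an Sm ring in which Lsm10 and Lsm11 replace SmD1 and SmD2 makes the U7 snRNP, which processes the 3′ ends of histone mRNAs.

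The coding sequences of 3 subunits of one LSM ring are shown because these genes parted under Tg and differ in base composition. Lsm3 and Lsm5 had the lowest changes of all Sm and LSM genes in PERK WT MEFs at 8 h, and Lsm7 lay above its control in all 4 PERK WT Tg libraries. Each run is the spliced coding sequence, 5′ to 3′, without the 30 nt at either end that were not counted, so that it is the stretch on which footprints were scored, and capitals mark C and G. The sequences were read from the mm10 mouse genome with a GENCODE annotation, in which the genes lie at chr6:91515928-91522625 on the plus strand (Lsm3), chr6:56701063-56704710 on the minus strand (Lsm5) and chr10:80852821-80855209 on the minus strand (Lsm7).

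Lsm3: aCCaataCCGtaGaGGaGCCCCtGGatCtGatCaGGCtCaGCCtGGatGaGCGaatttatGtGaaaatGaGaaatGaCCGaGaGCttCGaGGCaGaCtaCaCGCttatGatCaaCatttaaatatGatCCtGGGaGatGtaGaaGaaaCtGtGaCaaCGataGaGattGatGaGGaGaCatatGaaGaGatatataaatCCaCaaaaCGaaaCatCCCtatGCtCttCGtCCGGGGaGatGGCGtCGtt

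Lsm5: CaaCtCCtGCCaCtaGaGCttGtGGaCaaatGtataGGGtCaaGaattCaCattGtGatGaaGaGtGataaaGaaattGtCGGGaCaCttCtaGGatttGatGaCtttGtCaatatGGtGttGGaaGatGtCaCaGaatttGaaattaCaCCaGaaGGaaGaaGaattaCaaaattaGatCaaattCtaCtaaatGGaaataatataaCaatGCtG

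Lsm7: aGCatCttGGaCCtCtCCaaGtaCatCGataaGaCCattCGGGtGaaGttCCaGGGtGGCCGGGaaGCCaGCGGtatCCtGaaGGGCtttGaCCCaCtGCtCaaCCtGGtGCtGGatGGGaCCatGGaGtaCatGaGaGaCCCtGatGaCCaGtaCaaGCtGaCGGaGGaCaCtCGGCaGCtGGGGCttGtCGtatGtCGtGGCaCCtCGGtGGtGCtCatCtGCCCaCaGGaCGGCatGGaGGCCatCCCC

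The counted stretches hold 249, 216 and 252 nt, of which 44.2% are C or G in Lsm3, 34.7% in Lsm5 and 58.7% in Lsm7. Over the whole coding sequence the shares were 46.6%, 40.6% and 56.4%.

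There was 1 library per condition with no replicates, no test between conditions was made, and the 4 Tg libraries of a genotype share 1 control and are not independent of each other. The libraries held 2525029 (PERK WT, 2 h) to 14799515 (PERK −/−, 2 h) expected counts, and the median Sm and LSM member had 97 to 1078 counts. Changes are log2 ratios of TPM against the control of the same cells, with values under 4 TPM raised to 4, and a gene is said to have risen or fallen where its TPM changed at least 2-fold. Intervals are 95% exact or Wald intervals of the counts per library total and cover counting error only. TPM is a share of the footprints in a library, scaled to coding length, so that a lower TPM cannot be told apart from a smaller drop in other genes, and a lower mRNA level cannot be told apart from fewer ribosomes per mRNA. Eif2ak3 footprints, in CPM (counts scaled to the library total), were lower in the PERK −/− than in the PERK WT library at each matched time (7.64 to 19.1 against 14.4 to 33.3) but not absent, and a gene total does not show which exons they came from. Of 10 fibroblast markers, 8 to 10 reached a mean of 2 TPM and summed to 4828 to 8983 TPM, whereas 4 blood and macrophage markers summed to at most 4.8 TPM, 3 endothelial markers to at most 5.14 and 4 epithelial markers to at most 17.7, with Adgre1 at 0 throughout.

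In untreated cells the Sm and LSM genes had the higher footprint TPM. Their median was 226 TPM in PERK WT MEFs, 214 in PERK −/− MEFs and 178 in NIH3T3 cells, against 110.15, 88.3 and 77.5 TPM for the larger snRNP proteins. After Tg the classes parted in PERK WT MEFs. The median change of the Sm and LSM genes was −0.29, −0.45, −0.45 and −0.38 at 1, 2, 5 and 8 h, which in percent is a median change of −18.04%, −26.9%, −26.6% and −23.2%. For the larger snRNP proteins it was 0.02, 0.01, −0.03 and −0.02, close to the 0.00 to 0.01 of all genes tested. The difference between the class medians was thus −0.31, −0.46, −0.41 and −0.36 on the log2 scale.

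The counts of changed genes were uneven as well. Of the 21 Sm and LSM genes, 1, 4, 3 and 7 fell at 1, 2, 5 and 8 h in PERK WT MEFs, while 2.29%, 4.01%, 3.55% and 3.87% of all genes tested fell. With a limit of 1.5-fold the counts were 4, 9, 10 and 9 of 21, against 10.2%, 12.3%, 11.6% and 12% of all genes, and 1, 1, 2 and 4 of 26 for the larger snRNP proteins. Of the larger snRNP proteins only Prpf39 fell in any PERK WT library (1 of 26, at 8 h). In the other direction 2 Sm and LSM genes rose at 2 h (Lsm10 and Lsm11) and 1 at 8 h (Lsm10), where 5.66% and 6.45% of all genes rose. None rose at 1 h or 5 h, where 4.33% and 5.86% did, and no larger snRNP protein rose in any library on the TPM scale. On counts, Prpf40b was at 1.16 (0.72 to 1.61) at 8 h, from 65 and 136 counts, where its control of 2.24 TPM had been raised to the floor. The study drew its list of repressed genes from these same PERK WT libraries, and Sm and LSM genes are on it, so their direction there is not independent evidence.

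Direction was shared more widely than size. In all 4 PERK WT Tg libraries 13 of 21 Sm and LSM genes and 8 of 26 larger snRNP proteins lay below control, against 27.5% of all genes tested. The 13 were 6 of the 7 subunits of the Sm ring, Lsm1, Lsm3, Lsm5, Lsm6, Lsm8, Lsm12 and Lsm14b. On counts Lsm14b was at 0.07 (−0.11 to 0.25) at 8 h, so that its direction depends on the scale. The counting interval also included 0 for Snrpd2, Snrpd3, Lsm1, Lsm3 and Lsm14b at 1 h, and for Snrpd2 and Lsm8 at 2 h. Above control in all 4 were 4 Sm and LSM genes (Snrpb, Lsm7, Lsm10 and Lsm11) and 8 larger snRNP proteins, against 29.7% of all genes.

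**Figure D1:**
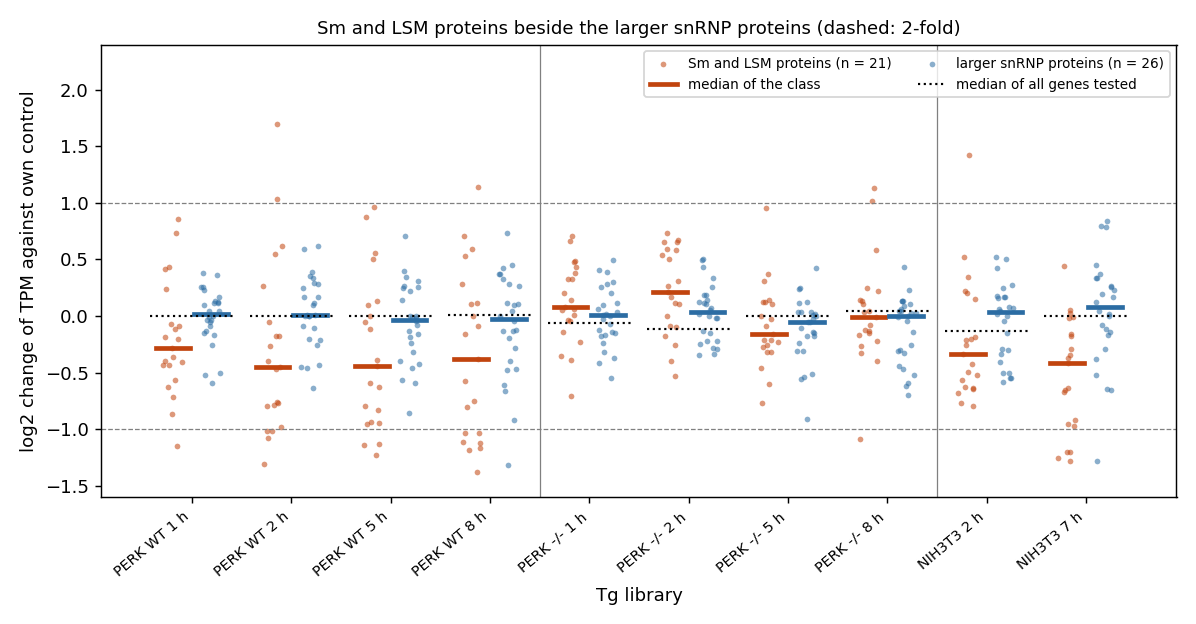
Log2 change of TPM against the untreated control for each gene (dots) in the 10 Tg libraries, with Sm and LSM and larger snRNP proteins side by side, class medians as bars, the median of all genes dotted and the 2-fold limits dashed. In PERK WT MEFs the Sm and LSM median sits at −0.29 to −0.45 at every time and that of the larger snRNP proteins between −0.03 and 0.02, whereas in PERK −/− MEFs both medians stay between −0.16 and 0.21.

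**Figure D2:**
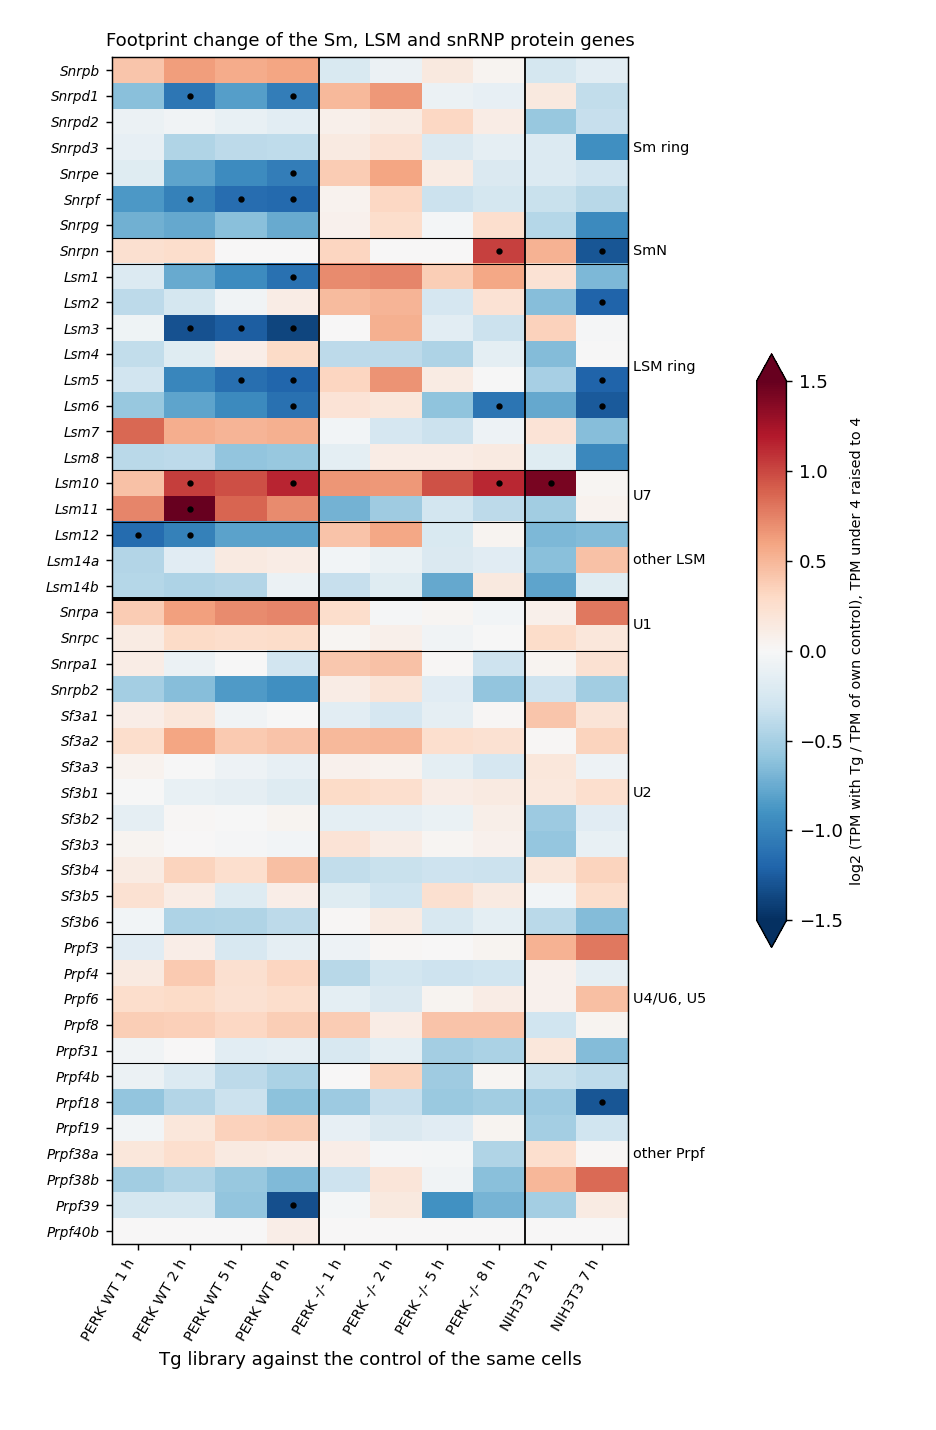
Log2 change of TPM against control for 46 of the 47 genes (rows, grouped by particle) in the 10 Tg libraries (columns), with colours clipped at 1.5 in either direction and dots where the change is at least 2-fold. The dots for lower values gather in the Sm ring and LSM rows of the PERK WT columns. In the NIH3T3 columns they lie at 7 h only, in Lsm2, Lsm5, Lsm6, Snrpn and Prpf18. The larger snRNP proteins carry 2 dots in all.

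The Sm ring is described first. Snrpe (SmE) had the highest TPM of all members in untreated PERK WT MEFs, at 1165 TPM. It was at 1027, 674, 605 and 569.5 TPM after 1, 2, 5 and 8 h. Snrpf (SmF) went from 967 TPM to 531, 478, 439.6 and 430.3 TPM. Snrpd1 (SmD1) stood at 561 TPM in the control and at 364, 266, 315 and 274 TPM under Tg. Each of these 3 genes was lower in every Tg library than in the control and fell at 8 h, 2.05-fold for Snrpe and Snrpd1 and 2.25-fold for Snrpf. On the log2 scale of counts the 8 h changes were −1.04 (95% interval −1.13 to −0.94) for Snrpe, −1.17 (−1.29 to −1.06) for Snrpf and −1.04 (−1.15 to −0.92) for Snrpd1.

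The other 3 subunits that were lower throughout moved less. Snrpg (SmG) was at 1157 TPM in the PERK WT control and at 702, 679, 750.3 and 688 TPM under Tg, a log2 change of counts of −0.76 (−0.86 to −0.65) at 8 h. Snrpd3 (SmD3) was at 591 TPM and then at 544, 432, 451 and 453 TPM. Snrpd2 (SmD2), the partner of SmD1 in the ring, was at 559 TPM and then at 525, 539, 517 and 502 TPM. None of these 3 reached 2-fold, and Snrpd2 stayed nearest to its control.

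Snrpb, which encodes the SmB and SmB′ proteins, went the other way. It had the lowest TPM of the subunits in untreated PERK WT MEFs, at 275 TPM. Under Tg it was at 366, 423, 405 and 413 TPM, all above the control, with a log2 change of counts of 0.59 (0.51 to 0.67) at 8 h. The median of the 7 subunits was −0.18, −0.77, −0.62 and −0.75 at 1, 2, 5 and 8 h. Their sum was 5274 TPM in the control and 3330 TPM at 8 h, and the ratio of the highest to the lowest subunit, Snrpe to Snrpb in the control, was 4.24 untreated and 2.82, 2.56, 2.38 and 2.51 under Tg. The 7 subunits, which enter each ring in equal number, thus lay closer together in TPM in the Tg libraries. Snrpb was higher there, and the subunits with the highest TPM were lower.

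**Figure D3:**
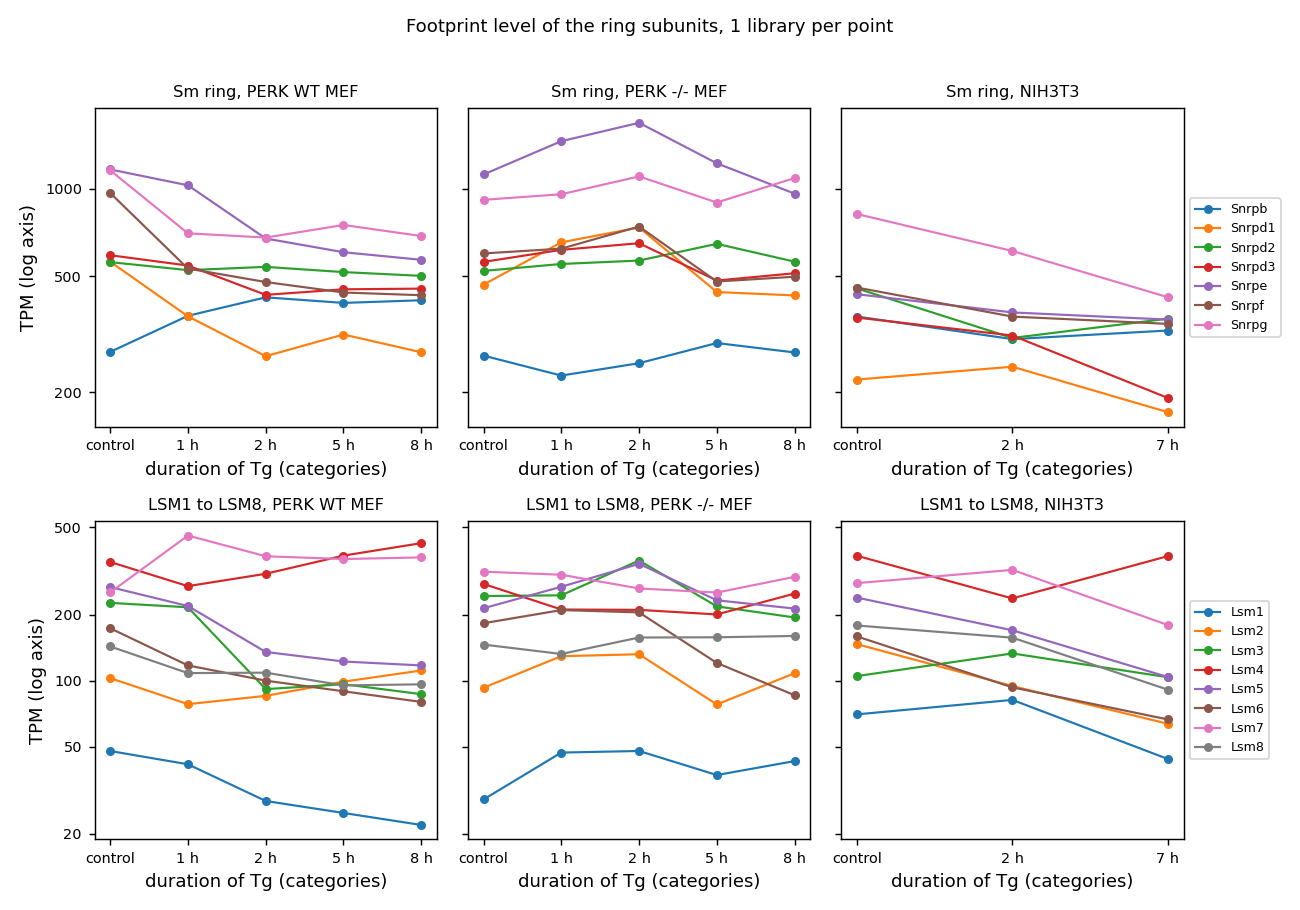
TPM on a log axis of the 7 Sm ring subunits (upper panels) and of Lsm1 to Lsm8 (lower panels) in each library of PERK WT MEFs, PERK −/− MEFs and NIH3T3 cells, with time of Tg as categories. In PERK WT MEFs Snrpe goes from 1165 to 569.5 TPM while Snrpb goes from 275 to 413 TPM, and Lsm3 and Lsm5 part from Lsm4 and Lsm7.

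In the LSM rings, Lsm3 showed the lowest change of all Sm and LSM genes. It was at 226 TPM in the PERK WT control, at 216 TPM at 1 h and at 91.4, 96.25 and 86.7 TPM at 2, 5 and 8 h, so that the first hour lay near the control and the later libraries were 2.61-fold lower by 8 h (log2 change of counts −1.38, −1.61 to −1.17). Lsm5 was at 267 TPM and then at 219, 135, 122 and 117 TPM, 2.28-fold lower at 8 h. Lsm6 was at 173 TPM and then at 117, 99.96, 89.4 and 79.9 TPM, 2.17-fold lower at 8 h (−1.12, −1.41 to −0.84). All 3 belong both to the nuclear and to the cytoplasmic ring.

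Lsm1, the subunit that marks the cytoplasmic ring, was at 47.7 TPM in the PERK WT control and at 41.5, 28.25, 24.9 and 21.96 TPM under Tg, 2.17-fold lower at 8 h (−1.12, −1.51 to −0.74). Lsm8, which marks the nuclear ring, was at 143 TPM and then at 108, 109, 95.05 and 96.2 TPM and did not reach 2-fold. The ratio of Lsm1 to Lsm8 TPM was 0.334 in the control and 0.384, 0.260, 0.262 and 0.228 under Tg. At 8 h its log2 change was −0.55, with a counting interval of −0.99 to −0.11. In the other cells the ratio was higher under Tg than in the control: 0.197 untreated and 0.355, 0.304, 0.235 and 0.269 in PERK −/− MEFs, with a log2 change of 0.85 (0.36 to 1.35) at 1 h and 0.63 (0.17 to 1.09) at 2 h, and 0.393 untreated and 0.520 and 0.483 in NIH3T3 cells, where the intervals of the change include 0.

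The remaining ring subunits were not lower at 8 h. Lsm7 was at 252 TPM in the PERK WT control and at 459, 369, 358 and 365 TPM, above the control throughout and highest at 1 h (log2 change of counts 0.88, 0.70 to 1.06). Lsm4 was at 347 TPM, at 269.6 and 307 TPM at 1 and 2 h and at 371.5 and 423 TPM at 5 and 8 h. Lsm2 was at 103 TPM and then at 78.1, 85.2, 98.9 and 111 TPM. Both Lsm4 and Lsm2 were thus below the control early and at or above it by 8 h. Over LSM2 to LSM8 the ratio of the highest to the lowest subunit was 3.39 in the control and 5.30 at 8 h, so that these subunits lay further apart under Tg, where those of the Sm ring lay closer together. In PERK −/− MEFs the early order was the reverse, with a Sm ring ratio of 4.19 untreated and 6.39 and 6.71 at 1 and 2 h, and a ratio over LSM2 to LSM8 of 3.38 untreated and 2.35 and 2.68. In NIH3T3 cells the Sm ring ratio was 3.71 in the control and 2.48 at 7 h, and that over LSM2 to LSM8 3.54 and 5.82.

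The U7-specific pair had a low TPM, which was higher under Tg in PERK WT MEFs. Lsm10 was at 12.7 TPM in the PERK WT control and at 17.2, 26.1, 24.8 and 28.1 TPM, and it rose 2.05-fold at 2 h and 2.21-fold at 8 h, from 46 counts in the control (log2 change of counts 1.14, 0.62 to 1.68, at 8 h). Lsm11 was at 4.96 TPM and then at 8.23, 16.1, 9.09 and 8.12 TPM and rose 3.24-fold at 2 h (1.70, 1.11 to 2.28). Lsm10 stood above its control in all PERK WT and all PERK −/− Tg libraries, and Lsm11, among the MEF libraries, only in the PERK WT ones.

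Lsm12, Lsm14a and Lsm14b act outside the rings or in a way less well defined. Lsm12 was at 144 TPM in the PERK WT control and at 64.55, 70.9, 82.6 and 82.2 TPM, so that its lowest value came first, with 2.22-fold at 1 h (−1.14, −1.42 to −0.87). Lsm14a and Lsm14b, components of P-bodies, were at 71.5 and 33.6 TPM in the control. Under Tg they ranged from 52.9 to 78.6 TPM and from 24.3 to 31.6 TPM, and neither reached 2-fold. Snrpn, the imprinted paralogue of Snrpb that is known mainly from brain, was at 3.09 TPM in the PERK WT control and at 4.71, 4.82, 3.13 and 3.32 TPM, from 8 to 25 counts a library. Reads of Snrpb and Snrpn can be shared between both genes, so the Snrpn values are uncertain, and it is named below only where the count needs it.

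Among the U1 proteins, Snrpa (U1-A) was at 136 TPM in the PERK WT control and at 177, 208, 222 and 226 TPM, a log2 change of counts of 0.74 (0.64 to 0.84) at 8 h. Snrpc (U1-C) was at 249 TPM and then at 271, 303, 299 and 302 TPM. Both lay above the control in all 4 Tg libraries without reaching 2-fold. In PERK −/− MEFs neither stood apart from its control at 8 h, with −0.04 for Snrpa and −0.00 for Snrpc. Earlier there, the log2 change of counts was 0.29 (0.15 to 0.43) for Snrpa at 1 h and 0.15 (0.02 to 0.28) for Snrpc at 2 h.

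The 11 U2 proteins spanned −0.92 to 0.45 at 8 h in PERK WT MEFs. Snrpb2 (U2-B″), which binds a stem-loop of U2 snRNA, was lowest, at 237 TPM in the control and at 167, 152, 131 and 125 TPM (−0.92, −1.04 to −0.80, at 8 h). Sf3b4 of the SF3b complex, which holds the branch point, was highest, at 119 TPM and then at 129.5, 151, 142 and 163 TPM. The other 9 lay between −0.39 (Sf3b6, which contacts the branch adenosine) and 0.42 (Sf3a2). On counts per library total Sf3a2 was at 0.82 (0.71 to 0.94), above Sf3b4, so that the highest U2 protein depends on the scale. The median of all 11 was 0.05, 0.00, −0.05 and −0.05 over the 4 times.

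The 5 proteins of the U4/U6.U5 tri-snRNP spanned −0.13 for Prpf3 to 0.37 for Prpf8 at 8 h in PERK WT MEFs, with Prpf31 at −0.13, Prpf6 at 0.27 and Prpf4 at 0.33. Prpf8, the large core protein of U5, was at 71.9 TPM in the PERK WT control and at 92.5, 91.9, 89.3 and 93.2 TPM. Prpf3, a protein of the U4/U6 particle, was at 67.7 TPM and then at 60.3, 72.5, 57.2 and 61.7 TPM, on both sides of its control. In PERK −/− MEFs Prpf8 was likewise above its control of 53.3 TPM, at 69.7, 57.6, 71.7 and 71.85 TPM.

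The other 8 Prpf proteins had the widest range of the larger class at 8 h. Prpf39, an alternative splicing factor that associates with U1, was at 23.4 TPM in the PERK WT control and at 19.5, 19.5, 15.5 and 9.41 TPM, 2.49-fold lower at 8 h. On counts per library total the same change was −0.99 (−1.23 to −0.74), just short of 2-fold, so that its call rests on the TPM scale. Prpf18, a factor of the second step of splicing, was at 23.6 TPM and then at 15.6, 17.4, 18.9 and 15.5 TPM. Prpf19, the ubiquitin ligase of the complex named after it, was at 147 TPM and then at 144, 166, 187 and 190.3 TPM. Of the rest, Prpf38b (−0.66) and Prpf4b (−0.47), a kinase, were below control at 8 h, Prpf38a was at 0.11, and Prpf40b, at 2.24 TPM in the control, was under the floor of 4 TPM in most libraries.

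In PERK −/− MEFs the Sm and LSM genes were not lower early. Their median change was 0.08, 0.21, −0.16 and −0.00 at 1, 2, 5 and 8 h, that of the larger snRNP proteins 0.01, 0.04, −0.05 and −0.00, and that of all genes −0.06, −0.11, 0 and 0.04. The early Sm and LSM medians depended on the scaling. At 1 and 2 h they were 0.21 and 0.43 with TMM factors and 0.19 and 0.40 with DESeq2 size factors. No Sm or LSM gene fell at 1, 2 or 5 h, where 3.38%, 5.78% and 4.77% of all genes did, and 1 (Lsm6) fell at 8 h, where 2.73% did. Lsm10 and Snrpn rose at 8 h, against 3.28% of all genes. None rose at 1, 2 or 5 h, where 0.719%, 0.623% and 3.26% did, and no larger snRNP protein rose or fell in any PERK −/− library. Below control in all 4 PERK −/− Tg libraries were 4 of 21 and 4 of 26, against 18.6% of all genes tested.

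At 1 h and 2 h in PERK −/− MEFs most ring subunits lay above the control in TPM, while Snrpb, Lsm4 and Lsm7 lay below it at both times and Lsm8 at 1 h. Of these lower values, the counting interval spanned the control level for Lsm7 and Lsm8 at 1 h and for Snrpb at 2 h. Snrpe was at 1119 TPM in the PERK −/− control and at 1457, 1685, 1223 and 961 TPM under Tg. Snrpd1 was at 468 TPM and then at 654, 736, 441 and 429.55 TPM. Lsm5 was at 214 TPM and then at 268, 341, 232 and 213 TPM. All 3 were highest at 2 h and back near or below the control by 8 h. At 2 h the log2 changes of counts were 0.66 (0.58 to 0.74), 0.72 (0.62 to 0.83) and 0.74 (0.56 to 0.94).

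Lsm3 and Lsm1 were also above their controls at both early times. Lsm3 was at 243 TPM and then at 245, 353, 218 and 194 TPM, and Lsm1 at 28.7 TPM and then at 47.0, 47.8, 37.1 and 42.95 TPM. Above control at both 1 h and 2 h of Tg were 13 of 21 Sm and LSM genes and 11 of 26 larger snRNP proteins, against 25.6% of all genes tested. Of the larger class, Sf3a2 was above on TPM (0.49 and 0.50) but not on counts (−0.09 and −0.01). Lower in all 4 PERK WT Tg libraries and higher in both early PERK −/− libraries were 11 of 21 and 5 of 26, against 10.4% of all genes. The 11 were Snrpd1, Snrpd2, Snrpd3, Snrpe, Snrpf, Snrpg, Lsm1, Lsm3, Lsm5, Lsm6 and Lsm12. Direction here is that of TPM. In PERK −/− MEFs the counting interval spanned the control level at 1 h for Snrpd2, Snrpf, Snrpg, Lsm3 (0.04, −0.15 to 0.23) and Lsm6. It did so for Lsm6 at 2 h as well.

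Other PERK −/− values differed from this course. Snrpf was at 599 TPM and then at 622, 741, 479.6 and 498 TPM, and Lsm6 at 183 TPM and then at 209.7, 205, 120.3 and 85.75 TPM, so that Lsm6 fell at 8 h (−1.10, −1.46 to −0.76) after standing above its control early. Lsm4 was at 276 TPM and then at 211, 210.1, 200.3 and 249 TPM, and Lsm7 at 314 TPM and then at 304, 263, 252 and 297 TPM. Both were below the control in TPM in all 4 PERK −/− Tg libraries. The counting interval spanned the control level for Lsm7 at 1 h (−0.02, −0.18 to 0.15) and 8 h (−0.09, −0.27 to 0.09) and for Lsm4 at 8 h. Lsm11 was at 10.1 TPM and then at 6.18, 6.97, 8.35 and 7.66 TPM, also below throughout, with a counting interval that spanned the control level at 5 and 8 h. Snrpb was at 267 TPM and then at 228, 251, 295 and 274 TPM, on both sides of the control.

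None of the following subunits rose or fell in a PERK −/− library. Snrpg was at 916 TPM and then at 957, 1102, 896 and 1088 TPM, Snrpd3 at 560.2 TPM and then at 616, 649, 483 and 512 TPM, and Snrpd2 at 522 TPM and then at 551, 566, 646 and 561 TPM. Lsm8 was at 146 TPM and then at 132, 157, 158 and 159.8 TPM, Lsm2 at 92.8 TPM and then at 129, 132, 77.8 and 108 TPM, and Lsm12 at 111 TPM and then at 149, 166, 94.6 and 114 TPM. Lsm14a ranged from 81.1 to 91.75 TPM under Tg, below its control of 94.2 TPM, and Lsm14b from 20.04 to 37.7 TPM on both sides of 34.1 TPM. The counting interval of Lsm14a spanned the control level at 1, 2 and 8 h.

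Lsm10 rose at 8 h in PERK −/− MEFs, where it was at 12.3 TPM in the control and at 19.45, 19.36, 23.8 and 26.9 TPM under Tg, above the control throughout as in PERK WT MEFs. Snrpn was at 3.26 TPM and then at 5.02, 2.48, 0.39 and 8.11 TPM, from 2 to 41 counts, so that its 8 h rise rests on few reads.

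The untreated MEFs of both genotypes already differed in some members, which enters each comparison between them. On the log2 scale of TPM, PERK −/− was below PERK WT by 0.73 in Lsm1 and 0.69 in Snrpf and above it by 1.02 in Lsm11 and 0.57 in Prpf18. Over the classes the median difference was −0.06 for Sm and LSM genes and −0.12 for larger snRNP proteins, against 0.08 for all genes.

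The change in PERK WT minus the change in PERK −/−, on counts per library total, had a median of −0.28, −0.69, −0.39 and −0.25 over the Sm and LSM genes at 1, 2, 5 and 8 h. Over the larger snRNP proteins it was −0.03, 0.08, 0.10 and 0.01, and over all genes 0.14, 0.18, 0.08 and 0.03. The counting interval lay wholly below 0 for 12, 13, 11 and 12 of 21 Sm and LSM genes, against 21.8%, 22.2%, 26.4% and 27.7% of all genes. For the larger class it did so for 5, 9, 8 and 6 of 26 genes, near that background at 1, 5 and 8 h and above it at 2 h. It lay wholly above 0 for 3, 3, 7 and 5 of 21 and for 7, 9, 8 and 11 of 26, against 33.6%, 36.3%, 33.3% and 30.9%. These intervals leave out the spread between cultures, which 1 library per condition does not show.

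At 2 h the difference was lowest for Lsm3 (−1.91, −2.34 to −1.48) and Snrpd1 (−1.80, −2.04 to −1.56), followed by Lsm5 (−1.72), Lsm12 (−1.67), Lsm1 (−1.65, −2.38 to −0.91), Snrpe (−1.45) and Snrpf (−1.39). By 8 h it was lowest for Lsm1 (−1.67, −2.25 to −1.08), and Lsm3 stood at −1.05 and Snrpd1 at −0.90. Lsm6, which was lower at 8 h in both genotypes, had a difference of −0.02 (−0.46 to 0.42) there, after −1.02 at 2 h. Lsm11 had the highest differences, 2.16 (1.46 to 2.85) at 2 h and 1.11 (0.45 to 1.78) at 8 h.

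**Figure D4:**
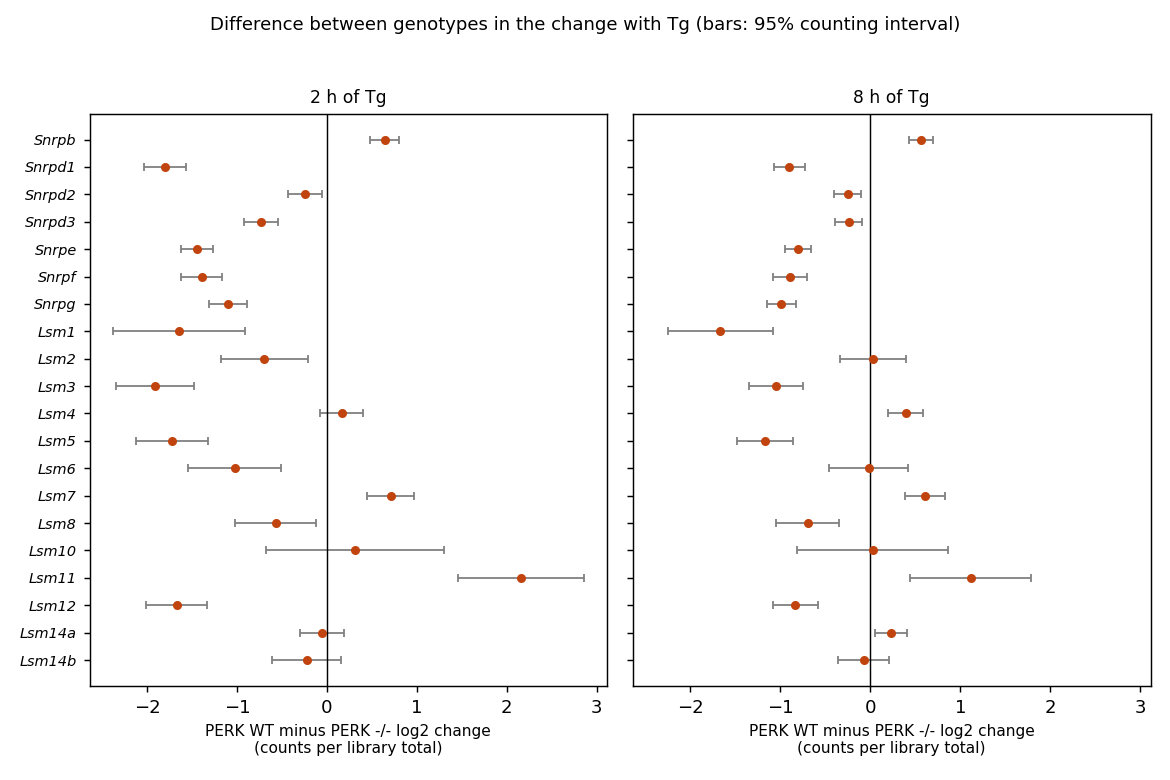
Log2 change in PERK WT minus log2 change in PERK −/− MEFs at 2 h and 8 h for each Sm and LSM gene except Snrpn, from counts per library total, with 95% counting intervals as bars. At 2 h most genes lie left of 0, down to −1.91 for Lsm3, while Lsm11 lies at 2.16, and at 8 h Lsm6 lies at −0.02.

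NIH3T3 cells, which have PERK and got the lower dose of Tg, were measured at 2 h and 7 h. The Sm and LSM median was −0.33 and −0.41, that of the larger snRNP proteins 0.03 and 0.08 and that of all genes −0.13 and 0, a difference between the classes of −0.37 and −0.50. The Sm and LSM median in these cells depended on the processing: it was −0.17 and −0.29 with DESeq2 size factors and −0.13 and −0.18 with the trend on coding length removed, where 2 genes in place of 4 were counted as fallen at 7 h. At 7 h 4 Sm and LSM genes fell (Lsm2, Lsm5, Lsm6 and Snrpn) and Prpf18 fell, where 8.06% of all genes did. At 2 h none fell, against 3.76% of all genes, and Lsm10 rose, against 5.76%. None rose at 7 h, where 7.01% did. By direction, 13 of 21 Sm and LSM genes and 7 of 26 larger snRNP proteins were below control at both times, against 41% of all genes tested.

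Within the Sm ring the NIH3T3 values resembled those of PERK WT MEFs in direction for most subunits. Snrpe was at 434, 376 and 355 TPM in the control and at 2 and 7 h, Snrpf at 457, 363 and 343 TPM, and Snrpd2 at 454, 307 and 357 TPM. Snrpg was at 819, 611 and 423 TPM and Snrpd3 at 361, 313 and 191 TPM, with log2 changes of counts of −0.95 (−1.11 to −0.79) and −0.92 (−1.09 to −0.75) at 7 h. These 5 subunits were below the control at both times in TPM. At 2 h the counting interval included 0 for Snrpe (−0.09, −0.30 to 0.12), Snrpd3 (−0.08, −0.27 to 0.10) and Snrpf (−0.21, −0.43 to 0.01). Snrpd1 was at 221, 244 and 170.4 TPM, higher at 2 h and lower at 7 h. Snrpb, which was above control in PERK WT MEFs, was at 363, 304 and 325 TPM and so below it here.

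At 7 h in NIH3T3 cells 3 ring LSM subunits fell. Lsm6 was at 159, 93.15 and 66.5 TPM, Lsm5 at 239, 169.6 and 104 TPM and Lsm2 at 147, 94.4 and 63.5 TPM, with log2 changes of counts of −1.26 (−1.66 to −0.88), −1.20 (−1.49 to −0.93) and −1.14 (−1.43 to −0.86). Lsm8 was at 178, 157 and 90.9 TPM, just short of 2-fold. Lsm3, the lowest in PERK WT MEFs, was at 105, 133 and 104 TPM and so at its control level at 7 h. Lsm1 was at 70.1, 81.65 and 43.9 TPM, Lsm7 at 278, 319.7 and 179 TPM and Lsm4 at 371, 237 and 369.6 TPM.

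Of the other members in NIH3T3 cells, Lsm10 rose 2.68-fold at 2 h, from 15.0 to 40.2 TPM, and was at 15.3 TPM at 7 h. Lsm11 was at 6.12, 4.27 and 6.35 TPM and Lsm12 at 158, 98.7 and 100.2 TPM. Prpf18 was at 24.6, 16.8 and 10.1 TPM, a log2 change of counts of −1.29 (−1.71 to −0.90) at 7 h. In PERK −/− MEFs Prpf18 was at 34.98 TPM in the control and at 24.0, 27.6, 23.8 and 24.4 TPM, so that it lay below control in all 10 Tg libraries. Snrpa was at 170.09, 180 and 293 TPM, above control as in PERK WT MEFs. The highest 7 h changes of the larger class were 0.84 in Prpf38b, 0.80 in Prpf3 and 0.79 in Snrpa. Snrpn, at 9.71, 13.9 and 1.86 TPM, had 8 counts at 7 h.

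Below control in all 4 PERK WT and both NIH3T3 Tg libraries were 10 of 21 Sm and LSM genes and 4 of 26 larger snRNP proteins, against 17.4% of all genes. The 10 were Snrpd2, Snrpd3, Snrpe, Snrpf, Snrpg, Lsm5, Lsm6, Lsm8, Lsm12 and Lsm14b, and the 4 were Snrpb2, Sf3b6, Prpf4b and Prpf18. Direction here is that of TPM. At 2 h in NIH3T3 cells the counting interval of Lsm8 (−0.06, −0.38 to 0.25) included 0, as did those of Snrpd3, Snrpe and Snrpf. On counts Lsm14b was not lower at 8 h in PERK WT MEFs.

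Base composition moved with the changes in PERK WT MEFs. The coding sequences of the Sm and LSM genes had a median G+C of 49.5% (40.6% to 62.8%), those of the larger snRNP proteins 50.9% and all genes 52.7%. Across the 47 members, which share libraries and controls, Spearman's rho of G+C with the PERK WT change was 0.57, 0.71, 0.73 and 0.80 at 1, 2, 5 and 8 h. It was −0.34, −0.59, 0.07 and 0.22 in PERK −/− MEFs and 0.12 and 0.30 in NIH3T3 cells. Over all genes with an annotated sequence the rho was 0.24, 0.36, 0.41 and 0.46 in PERK WT MEFs. It was −0.38, −0.47, −0.08 and −0.02 in PERK −/− MEFs and −0.11 and −0.06 in NIH3T3 cells. The relation is thus one of the whole libraries too in PERK WT MEFs and, at 1 and 2 h, in PERK −/− MEFs. In the late PERK −/− and the NIH3T3 libraries the sign over all genes was opposite to that over the members.

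The counted stretches printed above are poor in C and G for Lsm3 and Lsm5, which fell, and rich for Lsm7, although Lsm5, with the lower G+C, was nearer its control than Lsm3. These genes were picked for their change and base composition, so they are an example and not separate evidence of the relation. All 7 Sm and LSM genes that fell at 8 h in PERK WT MEFs had less than 50% G+C, as 12 of the 21 have, that is 58.3% of these 12 against 7.01% of all genes under 50%. Of the 9 Sm and LSM genes over 50% none fell, where 138 of 6644 genes over 50% did, and Snrpb (60.1%), Lsm7 (56.4%), Lsm4 (62.4%), Lsm10 (53.7%) and Lsm11 (62.8%) lay above control at 8 h. The Sm and LSM median at 8 h was −1.03 under 50% G+C and 0.29 over it, and in PERK −/− MEFs at 2 h the order was turned, with 0.42 and −0.09. Its part in the result beyond the following values was not tested.

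With a smooth trend on G+C removed from all genes, the difference between the class medians was −0.19, −0.56, −0.35 and −0.25 in PERK WT MEFs, 0.14, 0.19, −0.13 and 0.01 in PERK −/− MEFs and −0.43 and −0.50 in NIH3T3 cells. At 8 h in PERK WT MEFs Lsm3 (−1.20), Snrpf (−1.08), Lsm1 (−1.03) and Lsm6 (−1.02) were still past 2-fold. Lsm5 (−0.77), Snrpd1 (−0.75) and Snrpe (−0.65) were not, so that 4 genes in place of 7 were counted as fallen. The median difference between the genotypes without the trend was −0.38, −0.66, −0.26 and −0.35 for the Sm and LSM genes.

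Coding length also differs between the classes, with a median of 369 nt for the Sm and LSM genes and 1569 nt for the larger snRNP proteins. All genes with under 600 nt of coding sequence, 1409 in MEFs, had medians of −0.03, −0.04, 0 and 0 in PERK WT MEFs, and 3.97%, 6.74%, 5.96% and 7.24% of them fell, more than the 2.29%, 4.01%, 3.55% and 3.87% of all genes. In NIH3T3 cells the 1386 short genes had medians of −0.17 and −0.11 at 2 and 7 h, and 3.25% and 10.5% of them fell, against 3.76% and 8.06% of all genes. With a smooth trend on coding length removed from all genes, the difference between the class medians was −0.24, −0.29, −0.44 and −0.31 in PERK WT MEFs and −0.32 and −0.36 in NIH3T3 cells, and 1 Sm or LSM gene in place of 4 was counted as fallen at 2 h in PERK WT MEFs. Splitting the 47 members at 200 residues in place of by symbol gave a difference between short and long of −0.22, −0.47, −0.59 and −0.57 in PERK WT MEFs.

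Of 66 further genes that act with these particles, 64 could be tested. Their median change was −0.03, 0.07, −0.01 and 0.02 in PERK WT MEFs, with 2, 2, 3 and 3 genes fallen and 0, 1, 0 and 0 risen. These counts are near or below the shares of all genes, 2.29% to 4.01% fallen and 4.33% to 6.45% risen. In the SMN complex and its assembly partners, Gemin6 fell at 1, 5 and 8 h (−1.13, −1.22 and −1.08), and Gemin8 rose at 2 h (1.15). In the minor spliceosome, which removes a rare class of introns, Zrsr2 fell at all 4 times (−1.17, −1.54, −1.43 and −1.75) and Zcrb1 at 2, 5 and 8 h (−2.11, −1.47 and −1.33). The 28 tri-snRNP, Prp19 complex and helicase genes, the 7 Snrnp genes and the 7 mRNA decay partners of the LSM1 to LSM7 ring held no called gene in PERK WT MEFs, which at these shares says little for lists of this size.

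In PERK −/− MEFs the partners past 2-fold were Gemin7 (−1.13) and Coil, which encodes the Cajal body protein coilin (1.11), at 5 h, and Zrsr2 (−1.38) and Snrnp35 (−1.04) at 8 h. In NIH3T3 cells at 2 h Gemin6 was at −1.43, Snrnp35 at 1.23 and Snrnp48 at 1.67. At 7 h Dhx8 (−1.36), Snrnp25 (−1.14), Ppih (−1.12) and Coil (−1.09) fell, and Snrnp48 (1.43) and Zmat5 (1.15) rose.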

How the data were processed

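Ribosome footprints of 13 libraries, 1 per condition, were used. The authors kept footprints of 22 to 34 nt, took off polyA tails, removed rRNA and tRNA reads with STAR, aligned the rest by Bowtie2 to mm10 RefSeq coding regions that lacked 30 nt at either end, dropped transcripts under 100 nt, and ran RSEM. Tool versions are not given in the sources used here. As deposited, the expected counts were unscaled whole numbers per gene. TPM, as deposited, were computed by RSEM over the clipped lengths, each library by itself. Clipped ends and short transcripts weigh most on short coding sequences such as those of Sm and LSM genes.

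Genes were kept where the mean TPM reached 2, TPM under 4 was raised to 4, and each Tg library was divided by its own control. Counts per library total gave exact conditional intervals for single changes and Wald intervals for differences between genotypes, both at 95%. Coding G+C and length came from GENCODE vM21 (GRCm38, the assembly of mm10) for 10265 of 10432 MEF genes (98.4%) and 9918 of 10117 NIH3T3 genes (98%). Trends were removed by lowess (fraction 0.3). Scripts ran in Python 3.11.15 (statsmodels 0.14.6, scipy 1.17.1, pandas 2.3.3 and, for plots, matplotlib 3.10.9). R 4.3.3, edgeR 4.0.16 (TMM factors) and DESeq2 1.42.0 (size factors) were used, and the steps were tested on simulated data.

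The members and lists were chosen with earlier results of these data known. The rule for named genes took every Sm and LSM gene, each larger snRNP protein past 2-fold in a Tg library, the lowest and highest of each particle at 8 h in PERK WT MEFs, and the partners past 2-fold. Alternatives were other floors, filters, scalings, depths, folds and classes. Protein sequences were not used here, and 1 member is counted in the class values but its own values are not reported here.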

Additional observations from a re-analysis of the deposited data

Results flagged for a closer look

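In 8 of the 47 members (17%) every Tg library of PERK WT MEFs lay on one side of its control and every Tg library of PERK −/− MEFs on the other, against 832 of 10432 genes tested (7.98%). Of these, 7 are named here. The differences were not tested, since there was 1 library per condition and each genotype's 4 Tg libraries share a control. Lower in PERK WT and higher in PERK −/− were Lsm1, Snrpd2 and Sf3b1, as were 3.44% of all genes. Their PERK WT minus PERK −/− differences in log2 change of TPM at 8 h were −1.70, −0.26 and −0.33. Higher in PERK WT and lower in PERK −/− were Lsm11, Sf3b4, Prpf4 and Lsm7, as were 4.53% of all genes, with differences of 1.11, 0.77, 0.62 and 0.61. For Lsm11 the untreated controls already differed, at 4.96 TPM in PERK WT and 10.1 TPM in PERK −/− MEFs, from 64 and 73 counts. At 8 h of Tg it stood at 8.12 and 7.66 TPM. In PERK −/− MEFs the counting interval spanned the control level for Lsm11 at 5 and 8 h and for Lsm7 at 1 and 8 h. Sf3b1, the branch-point protein of SF3b, and Snrpd2 stood close to their controls in both genotypes.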

How the results depend on the processing

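Among the recomputed class medians, class differences and genotype differences, 324 moved by less than the interval of the main value over members and 10 moved by more. These 10 concerned the larger snRNP proteins. Their PERK −/− median at 2 h (0.04) was 0.22 with TMM factors, 0.19 with DESeq2 size factors and 0.16 without the trend on coding length. Their NIH3T3 median at 2 h (0.03) was 0.18 with TMM factors, 0.21 with DESeq2 size factors, 0.17 from counts per library total, 0.21 from thinned counts, 0.22 without the G+C trend and 0.19 without the length trend. The difference between genotypes for this class at 1 h (−0.03) was −0.22 with TMM factors. The interval measures the spread between members, which are not replicates. For the Sm and LSM genes it is wide, −1.03 to 0.12 in PERK WT MEFs at 8 h. A large move can thus lie within it, and the count of 324 does not show that these medians are stable. The Sm and LSM difference between genotypes at 2 h (−0.69) was −0.92 with TMM factors. The difference between the classes in PERK −/− MEFs at 5 h (−0.10) turned to 0.03 from counts per library total and with TMM or DESeq2 factors. TPM put the median of all genes at −0.13 in NIH3T3 cells and −0.11 in PERK −/− MEFs at 2 h, and TMM and DESeq2 factors put it near 0.

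Of the 28 member values past 2-fold among 470, the G+C trend removal lost 10, the length trend removal 6, and thinning lost 10 and gained 8. Of the Sm and LSM genes in PERK WT MEFs, 4, 3 and 7 fell at 2, 5 and 8 h. These were 1, 2 and 4 without the G+C trend, 1, 3 and 7 without the length trend, 5, 6 and 7 with TMM or DESeq2 factors, and 1, 2 and 5 in thinned counts. The Sm and LSM median at 1 h (−0.29) was −0.14 without the G+C trend. TMM factors lost 2 and gained 7, and DESeq2 size factors lost 2 and gained 6. Snrpn at 8 h in PERK −/− MEFs turned to −0.38 in thinned counts. TPM and counts differed by over 0.3 in 4 genes (Snrpn, Sf3a2, Prpf39 and Prpf40b). No paired analysis was possible because each group held 1 library, so the genotypes are compared as differences at matched times. For the same reason no replicate could be left out. Precision is limited by depth in Lsm10, Lsm11 and Snrpn, which had under 130 counts in every library. Other members were low in single libraries. Lsm1 had 24 to 83 counts in the PERK WT Tg libraries and 62 in the PERK −/− control. At 2 h in PERK WT MEFs Lsm2 and Lsm3 had 55 counts each and Lsm6 had 42.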
